A study of Rattus norvegicus with 4 samples.

Results

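The genes described here are 10 C-type lectin receptors of myeloid cells, Clec5a, Clec7a, Clec10a, Clec4a1, Clec4a3, Clec4d, Clec4e, Clec12a, Clec9a and Cd209a, out of 14506 genes measured in rat fat. They were chosen by name, as the array rows that carry exactly 1 of these symbols. Where a gene had several rows the row with the highest mean over the arrays was to be kept, but each of the 10 genes had 1 row, so no measured value chose between rows. Clec5a and Clec7a were put forward because their large rises were already known from these arrays, so their differences are given as a description with no p-value, and nothing rests on them.

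Retroperitoneal white fat, a visceral depot, was taken from untreated male WNIN/Ob rats, 4 months old, of a strain kept for its lean and obese phenotypes. There were 2 lean rats and 2 obese rats, all fed stock diet, and each gave 1 sample on 1 Affymetrix Rat Gene ST array. The labels name no allele for either phenotype and no litter, and the number of arrays limits the precision of every value. Values are log2 intensities, and a difference is the mean of the obese rats minus the mean of the lean rats (n = 2 per group). Its standard error (SE) is the moderated one of the limma fit, which pools the spread over all genes.

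C-type lectin receptors are surface proteins by which myeloid cells bind sugars, lipids and the remains of microbes and dead cells. Some signal for activation, either through a tyrosine motif of their own or through the adaptors Tyrobp and Fcer1g, to the kinase Syk and on to Card9. Others carry inhibitory motifs that recruit phosphatases such as Ptpn6. In fat, most cells that carry these receptors are macrophages, monocytes and dendritic cells.

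All 13 measured adipocyte genes were above background on every array, as the tissue label has it. Background was taken from 187 olfactory and vomeronasal receptor genes, which fat is not known to use. Their median was 3.43 in lean rat 2 and 2.77 to 2.87 on the other arrays, and their 95th percentile was 5.24 in lean rat 2 and 4.38 to 4.68 elsewhere. These dim genes thus read higher in lean rat 2 than elsewhere. Lean rat 1 stood apart by skeletal muscle RNA. The 18 measured muscle markers summed to an intensity of 49855 in it, against 1037 in lean rat 2 and 805 to 1108 in the obese rats, and no marker was listed at 0. The part of either array in a result was not tested, but results without each rat are given where they change.

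Among the receptors that signal for activation are Clec5a and Clec7a, which had the highest differences of the 10, and Clec4d, Clec4e and Clec9a, which did not pass. Clec5a couples to Tyrobp and is found on monocytes, macrophages and neutrophils. Its log2 intensity was 3.01 and 3.0 in the lean rats and 6.84 and 6.56 in the obese rats, a difference of 3.70 ± 0.23, or 13.0-fold. Both lean values lay within the background range, so the size of this difference depends on the floor of the array. Set against the 95th percentile of background genes in the lean rats, the obese mean was still 1.73 higher.

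Clec7a, or dectin-1, binds the beta-glucans of fungal walls and signals through its own cytoplasmic tyrosine. It was at 4.88 and 4.96 in the lean rats and at 8.84 and 8.16 in the obese rats, a difference of 3.58 ± 0.31, or 12.0-fold. In linear intensity Clec7a was at 29.5 and 31.1 in the lean rats and at 459 and 286 in the obese rats. Its lean values were at the edge of background, above the 95th percentile in lean rat 1 and below it in lean rat 2. With a rat left out in turn, Clec5a ran from 3.55 to 3.84 and Clec7a from 3.24 to 3.92. Without the muscle-rich lean rat 1, Clec5a was at 3.70 and Clec7a at 3.54.

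Clec4d and Clec4e are partner receptors that sense mycobacterial glycolipids through Fcer1g. Clec4d was at 4.68 and 4.86 in the lean rats and at 6.0 and 5.66 in the obese rats. The groups did not overlap, yet the difference of 1.06 ± 0.24 did not pass limma's test across all genes (adjusted p = 0.106). Clec4e, also called Mincle, was at 4.17 and 4.75 in the lean rats and at 4.94 and 4.67 in the obese rats. Here the groups overlapped, the difference was 0.35 ± 0.27 (limma adjusted p = 0.578), and it was 0.06 without lean rat 1. Both genes were below the 95th percentile of background in both lean rats and above it in both obese rats.

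Clec9a recognises actin filaments exposed by dead cells and marks a subset of dendritic cells. It was at 3.46 and 3.92 in the lean rats and at 3.47 and 3.95 in the obese rats. No array put Clec9a above the 95th percentile of background, so these data give no level for it, and its difference of 0.02 ± 0.28 (limma adjusted p = 0.984) was below 0 with arrays centred on their medians (-0.05) and without lean rat 1 (-0.21) or obese rat 2 (-0.22).

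Clec12a, which carries an inhibitory motif and binds uric acid crystals, rose. It was at 4.97 and 4.79 in the lean rats and at 7.01 and 6.49 in the obese rats, a difference of 1.87 ± 0.27 or 3.65-fold (limma adjusted p = 0.028). Both obese rats were well apart from both lean rats. The lean values were at the edge of background, above the 95th percentile in lean rat 1 and below it in lean rat 2. The call was lost with quantile normalization (adjusted p = 0.056) and when p-values were adjusted over all 29214 rows of the table (adjusted p = 0.056). With a rat left out the difference ran from 1.60 to 2.13.

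Clec4a1 and Clec4a3 belong to the dendritic cell immunoreceptor group of the Clec4a genes and are also known as Dcir4 and Dcir3. Clec4a3 was at 7.22 and 6.43 in the lean rats and at 9.68 and 8.91 in the obese rats, and it rose by 2.47 ± 0.39, or 5.54-fold (limma adjusted p = 0.041). It was above background on every array. Its call stood close to the threshold and was lost without lean rat 2 (2.08, adjusted p = 0.0505). Quantile normalization (adjusted p = 0.064), all rows of the table (0.067), arrays shifted to the receptor background (0.062), a pseudocount of 16 (0.052) and a filter on genes under background (0.051) also ended it.

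Clec4a1 was at 7.52 and 7.03 in the lean rats and at 9.51 and 8.39 in the obese rats. The groups were apart, but obese rat 1 exceeded obese rat 2 by 1.12, and the difference of 1.67 ± 0.42 did not pass (limma adjusted p = 0.133). Leaving out obese rat 1 gave 1.11, and leaving out obese rat 2 gave 2.23, where it passed (adjusted p = 0.0029) with 1 obese rat and a spread taken from the lean rats. The Clec4a genes are close copies of each other, and how far their probes share signal was not tested, so the values of single copies are uncertain.

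The remaining receptors bind sugars and take up what carries them. Clec10a, a receptor for galactose and N-acetylgalactosamine on macrophages and dendritic cells, was at 7.41 and 7.93 in the lean rats and at 8.65 and 8.28 in the obese rats. Its groups were apart by a narrow margin, and the difference of 0.80 ± 0.32 did not pass (limma adjusted p = 0.30). Clec10a was above the 95th percentile of background on every array. Cd209a, a relative of the mannose receptor DC-SIGN, was at 2.91 and 3.86 in the lean rats and at 2.98 and 3.33 in the obese rats, within background on every array. Its difference of -0.23 ± 0.34 (limma adjusted p = 0.787) took the opposite sign without lean rat 2 (0.24), with quantile normalization (0.04) and with arrays shifted to the receptor background (0.11).

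**Figure D1:**
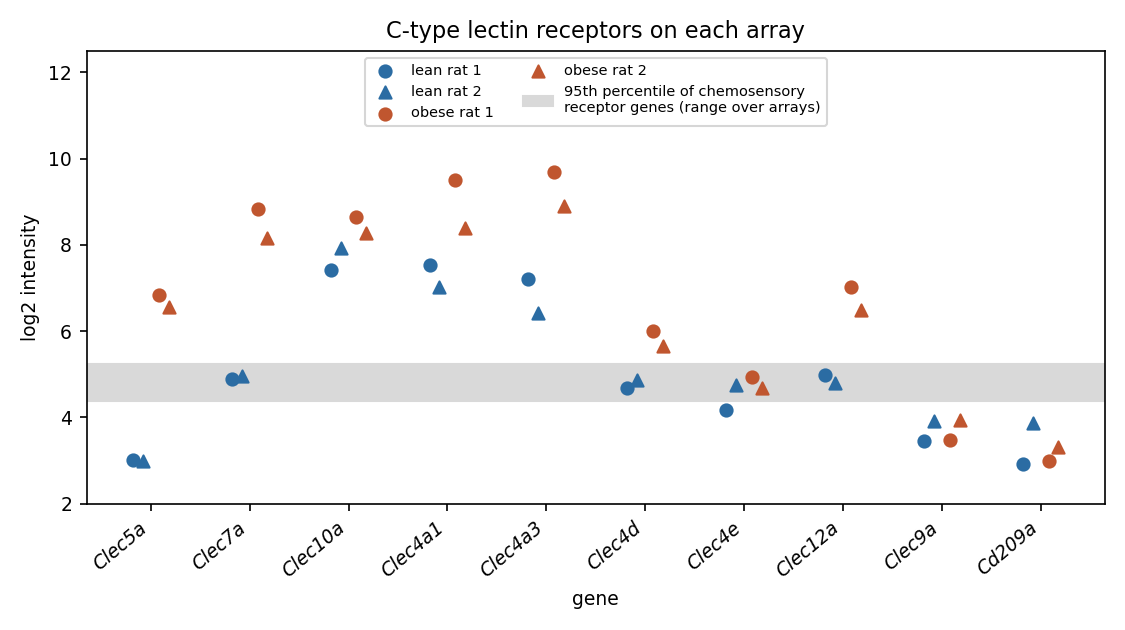
Log2 intensity (y axis) of the 10 receptors (x axis) on each of the 4 arrays, with lean rats in blue, obese rats in orange, rat 1 as circles and rat 2 as triangles. The grey band spans the 95th percentile of the 187 chemosensory receptor genes over the arrays, 4.38 to 5.24. Clec5a and Clec7a lie at or under the band in lean rats and far above it in obese rats, while Clec9a and Cd209a lie below the band on every array.

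Of the 8 receptors other than Clec5a and Clec7a, 2 rose in limma (Clec4a3 and Clec12a), 0 fell and 6 did not pass. At an unadjusted p under 0.05, 5 of these 8 were higher and 0 lower. Across all genes tested 0.841% passed the adjusted threshold in either direction, 0.772% upward and 0.0689% downward, and at an unadjusted p under 0.05 the shares were 9.93% upward and 5.33% downward. Since the receptors were drawn up with earlier results of these arrays known, nothing is read from the members' share. The median difference of the 8 was 0.93, and 1.36 with Clec5a and Clec7a included, beside 0.0005 over all genes. For 5 of the 8 each obese rat exceeded each lean rat, which held for 26.4% of all genes. For none was each obese rat below each lean rat, which held for 21.3%. Without lean rat 1 Clec4a3 and Clec12a again passed, and without lean rat 2 Clec12a did. With a rat left out, its group is 1 sample that is assumed to vary like the other group, whose spread is then the basis of the test, so a call kept or gained there is weak. For 1 gene in 2 rats against 2, the smallest p of a two-sided exact permutation test is 0.333, so the calls depend on limma's pooling of the spread over genes.

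The obese rats differed from each other in the same order for most receptors. Obese rat 1 exceeded obese rat 2 for 8 of the 10, by 0.27 for Clec4e to 1.12 for Clec4a1, and was lower for Clec9a and Cd209a, which are within background. The lean rats showed no such common order. Lean rat 1 exceeded lean rat 2 for Clec4a3 (by 0.79), Clec4a1 (0.49), Clec12a (0.18) and Clec5a (0.0064), and was lower for the other receptors. The pooled intensity of the 10 rows was 634 and 613 in the lean rats and 2766 and 1699 in the obese rats. The summed macrophage markers described below were also higher in obese rat 1 (18153) than in obese rat 2 (11788). The share of all genes higher in obese rat 1 than in obese rat 2 was not counted.

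**Figure D2:**
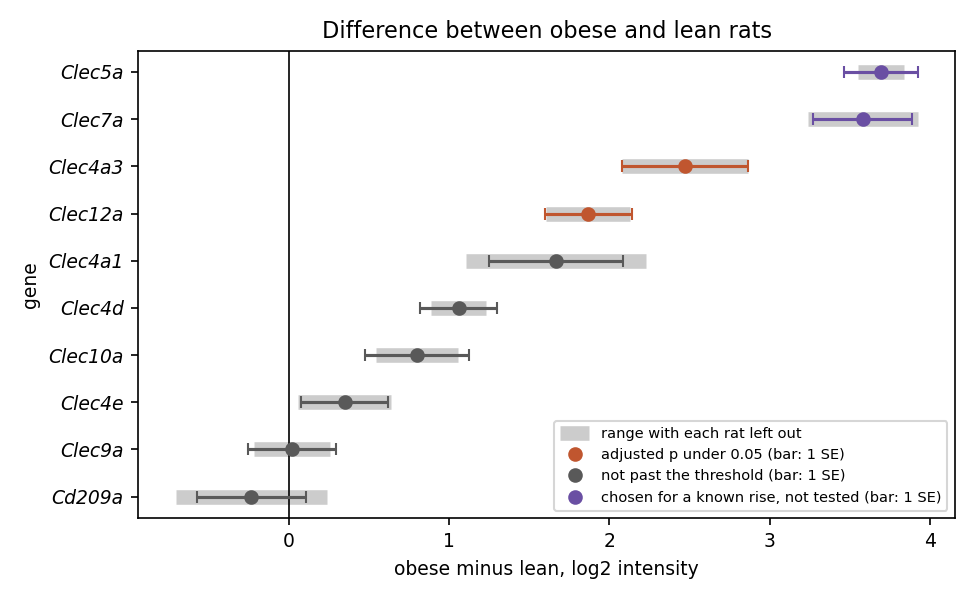
Difference between obese and lean rats in log2 intensity (x axis) for each receptor (y axis), with points for the fitted value, thin bars for 1 SE and grey bars for the range when each rat was left out in turn. Points in orange passed an adjusted p of 0.05 in limma, and purple marks Clec5a and Clec7a, chosen for known rises and not tested. Values run from -0.23 for Cd209a to 3.70 for Clec5a, and the grey bars of Clec9a and Cd209a cross 0.

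Most of the receptor genes lie in clusters on chromosome 4 of RefSeq's assembly GRCr8, which was used here only for which genes neighbour each other. The cluster from Clec4a1 to Clec4e holds 7 protein-coding genes, all measured. Along it the differences were 1.67 for Clec4a1, 2.47 for Clec4a3, 1.57 for Clec4a2, 1.86 for Clec4a, -0.09 for Clec4b2, 1.06 for Clec4d and 0.35 for Clec4e. The 4 Clec4a genes at one end were the highest of the cluster, and of all 7 only Clec4a3 passed the test. Clec4a (limma adjusted p = 0.076) and Clec4a2 (0.143) had both obese rats above both lean rats, whereas Clec4b2 (0.922) overlapped.

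The cluster from Clec12a to Olr1 holds 8 protein-coding genes, 6 of them with a row of their own here. Clec12a at one end was at 1.87, and Clec7a and its neighbour Olr1, a receptor for oxidised low-density lipoprotein, at the other end were at 3.58 and 3.27. Olr1 was at 3.97 and 4.39 in the lean rats and at 7.21 and 7.70 in the obese rats (limma adjusted p = 0.011). Both lean values of Olr1 were below the 95th percentile of background, so the size of its difference depends on the floor of the array. Between them Clec12b (0.32), Clec9a (0.02) and Clec1a (0.25) did not pass. Clec12b was at 4.12 and 4.18 in the lean rats and at 4.32 and 4.62 in the obese rats, near background, but Clec1a was at 5.52 to 6.07 on all arrays, above it. The genes with high differences thus stood on either side of genes that did not pass. The differences between neighbours were not tested, and the neighbours Clec12b, Clec1a, Clec4a, Clec4a2 and Clec4b2 were taken up for their position after their values were seen.

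**Figure D3:**
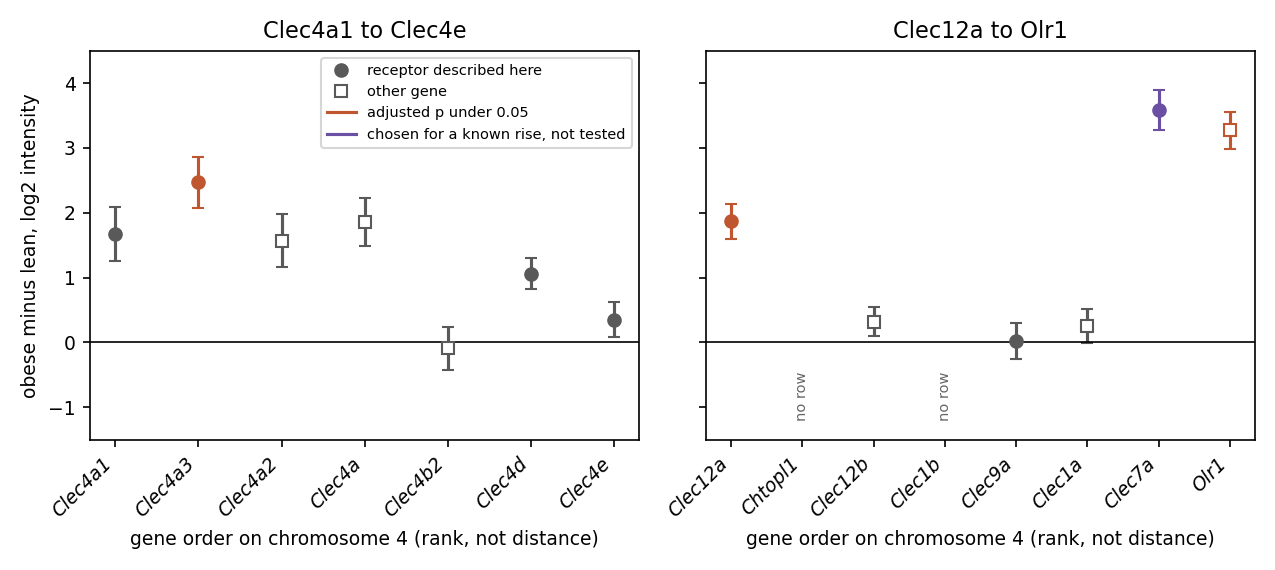
Difference between obese and lean rats in log2 intensity (y axis, bars 1 SE) for the genes of the clusters from Clec4a1 to Clec4e and from Clec12a to Olr1, in the order they have on chromosome 4 (x axis, rank only). Filled circles are receptors described here, open squares are other genes, orange marks an adjusted p under 0.05, and purple marks Clec7a, chosen for a known rise and not tested. In the second cluster Clec7a (3.58) and Olr1 (3.27) stand beside Clec1a (0.25) and Clec9a (0.02).

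Upstream sequence is given for 5 of the receptors, because genes of the clusters lie close together yet had different values. These are Clec5a and Clec7a, the largest differences, Clec12a, a receptor that rose, Clec9a, within background in the same cluster, and Clec4e, whose groups overlapped. They were read from RefSeq's promoter table on GRCr8, in which 9 of the 10 genes matched and Clec10a did not. The table gives 250 bases before and 50 bases after each start site, and only the upstream bases outside the RefSeq extent of the gene are printed. Sequences run 5′ to 3′ on the strand of the gene, at chr4:70383561-70383756 (minus strand) for Clec5a, chr4:164599954-164600077 (minus) for Clec7a, chr4:164483912-164484161 (plus) for Clec12a, chr4:164546073-164546322 (plus) for Clec9a and chr4:158298608-158298717 (minus) for Clec4e. Capitals mark the letters of the motifs searched, which are named after the sequences.
Clec5a: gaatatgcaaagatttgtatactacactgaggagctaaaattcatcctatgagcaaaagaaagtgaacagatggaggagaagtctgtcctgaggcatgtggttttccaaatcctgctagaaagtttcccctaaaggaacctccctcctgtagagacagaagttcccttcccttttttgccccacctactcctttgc
Clec7a: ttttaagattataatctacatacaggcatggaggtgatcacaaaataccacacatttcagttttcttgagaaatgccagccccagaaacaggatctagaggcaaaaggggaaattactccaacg
Clec12a: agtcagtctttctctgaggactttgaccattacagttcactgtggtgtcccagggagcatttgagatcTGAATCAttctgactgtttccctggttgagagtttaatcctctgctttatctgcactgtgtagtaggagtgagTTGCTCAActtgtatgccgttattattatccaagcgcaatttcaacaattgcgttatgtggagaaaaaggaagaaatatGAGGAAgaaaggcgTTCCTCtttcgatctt
Clec9a: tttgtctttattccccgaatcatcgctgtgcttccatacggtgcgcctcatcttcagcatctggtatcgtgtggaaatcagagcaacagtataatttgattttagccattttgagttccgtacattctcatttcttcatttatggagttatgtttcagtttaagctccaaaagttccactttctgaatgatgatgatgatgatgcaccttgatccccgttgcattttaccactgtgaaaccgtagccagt
Clec4e: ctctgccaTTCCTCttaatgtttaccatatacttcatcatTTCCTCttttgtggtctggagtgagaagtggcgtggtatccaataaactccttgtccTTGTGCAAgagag

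The motifs were the core of PU.1, a transcription factor of myeloid cells (GAGGAA), AP-1 (TGANTCA), C/EBP (TTGCNNAA) and the TATA box (TATAAA), each on both strands, over the whole window of 250 bases before to 50 after the start site. No matches overlapped those of another motif. The PU.1 letters were in 5 of the 9 windows, those of Clec4a1, Clec4a3, Clec4d, Clec4e and Clec12a, and in 27.6% of the 33469 windows in the table. C/EBP letters were in the windows of Clec4e and Clec12a and in 10.6% of all windows. AP-1 letters were in that of Clec12a and in 7.33% of all windows, and TATA letters in that of Cd209a and in 14.2%. Clec5a and Clec7a, which have the largest differences, held none of the 4 motifs in these windows, and Clec4e, which did not pass, held 3 copies of the PU.1 letters. A match is a description of letters and not a binding site, and no match says only that these letters are absent from this window.

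The pathways that carry the receptors' signals were read from lists of their genes. Among 28 measured genes of adaptors and downstream signalling, 1 passed upward and 0 downward, beside 0.772% and 0.0689% of all genes, and the median difference was 0.52. The gene that rose was Btk, a tyrosine kinase that acts on phospholipase C gamma, from 4.74 and 4.37 in the lean rats to 6.41 and 6.34 in the obese rats (1.81 ± 0.24, limma adjusted p = 0.025). At an unadjusted p under 0.05 in limma 13 were higher and 0 lower, against 9.93% and 5.33% of all genes. For 18 of the 28 each obese rat exceeded each lean rat, against 26.4% of all genes, and Jun was the 1 gene for which each was lower.

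The adaptors themselves did not pass. Tyrobp, the adaptor of Clec5a, was at 6.39 and 6.86 in the lean rats and at 8.39 and 7.73 in the obese rats (1.44 ± 0.34, limma adjusted p = 0.114). Fcer1g, the adaptor of Clec4e, was at 8.99 and 10.25 in the lean rats and at 11.07 and 11.04 in the obese rats (1.43 ± 0.44, limma adjusted p = 0.208). The kinase Syk was at 1.33 ± 0.29 (limma adjusted p = 0.098) and the scaffold Card9 at 0.56 ± 0.23 (limma adjusted p = 0.313). All 4 had both obese rats above both lean rats, at differences smaller than those of Clec5a and Clec7a, although the gap between these differences was not tested.

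Genes that restrain such signals were counted in the same way. Of 15 measured inhibitory phosphatases and receptors, 1 rose and none fell in limma, beside 0.772% and 0.0689% of all genes. At an unadjusted p under 0.05 in limma 9 were higher and 0 lower, against 9.93% and 5.33% of all genes. The list's median was 0.80, which was 0.53 without obese rat 1. Lilrb4, an inhibitory immunoglobulin-like receptor, rose from 4.98 and 5.98 in the lean rats to 8.66 and 8.16 in the obese rats (2.93 ± 0.38, limma adjusted p = 0.025). The phosphatase Ptpn6, which binds inhibitory motifs like that of Clec12a, was at 0.70 ± 0.28 (limma adjusted p = 0.291), and the lipid phosphatase Inpp5d at 1.10 ± 0.27 (limma adjusted p = 0.125).

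Genes that such signalling can induce had a list median near 0, but part of the list was not above background. Of the 24 measured, 14 were above the 95th percentile of background in both obese rats and 12 in both lean rats. A lack of difference in the dim ones gives no level for them. Of these outputs, 1 rose and none fell in limma, beside 0.772% and 0.0689% of all genes. At an unadjusted p under 0.05 in limma 3 were higher and 1 lower, where all genes gave 9.93% and 5.33%. The median was -0.13. The gene that rose was Il1rn, the interleukin-1 receptor antagonist (2.42 ± 0.35, limma adjusted p = 0.028). For 7 of the 24 each obese rat exceeded each lean rat, and for 6 each was lower, shares near the 26.4% and 21.3% of all genes. The list's median took the opposite sign without lean rat 2 (0.19) and with arrays shifted to the receptor background (0.22).

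The wider lectin family held values on both sides of 0. Of 52 other measured C-type lectin-like genes, 2 rose and none fell in limma, beside 0.772% and 0.0689% of all genes. At an unadjusted p under 0.05 in limma 8 were higher and 5 lower, where all genes gave 9.93% and 5.33%. The median was -0.08, a value with no settled sign. It was above 0 with quantile normalization (0.09), with arrays shifted to the receptor background (0.26), with either filter on dim genes (0.16), without lean rat 2 (0.08) and without obese rat 1 (0.0032). Olr1 is given above. The other, Klra5, a receptor of the natural killer cell family, was at 2.35 and 2.52 in the lean rats and at 5.10 and 4.09 in the obese rats (2.16 ± 0.34, limma adjusted p = 0.038). It comes from a multigene family and was below the 95th percentile of background in all but obese rat 1, so its identity and size are uncertain. The macrophage mannose receptor Mrc1 was bright, at 9.18 and 9.14 in the lean rats and at 11.16 and 10.38 in the obese rats (1.61 ± 0.36, limma adjusted p = 0.099). On the other side Selp, the selectin of activated endothelium and platelets, was at -1.24 ± 0.32 (limma adjusted p = 0.143), with both obese rats below both lean rats.

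Markers of cells that can carry these receptors were read beside them. For the counts that follow, 0.772% of all genes passed upward in limma and 0.0689% downward. At an unadjusted p under 0.05 in limma the shares of all genes were 9.93% higher and 5.33% lower. Each obese rat was below each lean rat for 21.3% of all genes. Of 21 measured macrophage markers 7 rose, Gpnmb, Lyz2, Mpeg1, Laptm5, Itgam, Mertk and Fcgr1a. Others did not, such as Cd14 (0.15), Cd163 (-0.05), Marco (-0.11) and Lyve1 (-0.41), none of which passed. None fell in limma (14 higher and 0 lower at an unadjusted p under 0.05), the median was 1.61, and their summed intensity was 5509 and 5201 in the lean rats and 18153 and 11788 in the obese rats. Of 11 monocyte markers 3 rose, Ccr1, Ccr2 and Itgam, the last of which is in both lists, and 5 were higher and 1 lower at an unadjusted p under 0.05 in limma. Nr4a1 (-1.33), Ly6c (-0.70) and Plac8 (-0.23) did not pass, with each obese rat below each lean rat. The list's median was 0.60, with sums of 3617 and 3249 in the lean rats and 6351 and 4715 in the obese rats. Of 12 dendritic cell markers none passed limma's test (3 higher and 0 lower at an unadjusted p under 0.05). Their median was 0.35, but 0.17 without lean rat 1 or with quantile normalization, 0.20 without obese rat 2 and 0.70 with arrays shifted to the receptor background, and the sums were 611 and 799 in the lean rats and 941 and 904 in the obese rats. Of 14 neutrophil markers Fcgr3a alone rose (2.43), which macrophages also express, from lean values of 4.27 and 4.37, below the 95th percentile of background. At an unadjusted p under 0.05 in limma 2 neutrophil markers were higher and 0 lower. Their median was 0.09, with no settled sign (-0.07 without obese rat 2 and 0.43 with arrays shifted to the receptor background). S100a8, abundant in neutrophils, was at 3.15 to 3.45, below the 95th percentile of background on every array. Mpo (8.28 to 9.10) and Lcn2 (6.17 to 6.73) were above it on every array and did not pass. Of the 14 markers, 9 were above that percentile in both obese rats and 3 in both lean rats. Of 12 lymphocyte and natural killer cell markers none passed either (0 higher and 1 lower at an unadjusted p under 0.05 in limma). Their median of -0.12 ranged from -0.42 without lean rat 1 to 0.22 with arrays shifted to the receptor background, and it was also above 0 without lean rat 2 (0.08). The neutrophil sums were 681 and 786 in the lean rats and 789 and 1044 in the obese rats, and no marker of any list was at 0. In bulk tissue, more cells of a type and more RNA per cell cannot be told apart, and the part of the macrophage genes in the receptors' differences was not tested.

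Set against the macrophage markers of the same array, the receptors gave a range of values. The median level of the 21 markers was 6.94 and 7.20 in the lean rats and 8.78 and 8.80 in the obese rats. Relative to that median, the difference between obese and lean rats was 1.98 for Clec5a, 1.86 for Clec7a and 0.75 for Clec4a3. It was close to 0 for Clec12a (0.15) and Clec4a1 (-0.05). It was below 0 for Clec4d (-0.66), Clec10a (-0.92) and Clec4e (-1.37), and for Clec9a (-1.70) and Cd209a (-1.95), which lay within background on every array. Clec5a relative to the markers was at -3.93 and -4.20 in the lean rats and at -1.94 and -2.24 in the obese rats, and Clec7a at -2.06 and -2.24 against 0.06 and -0.64. These are descriptions within each array, with no test, and the markers themselves differed by -0.41 to 3.92, a range that holds the difference of every receptor before this subtraction. The values of Clec5a rest on lean readings within background. Clec4d and Clec4e in both lean rats, and Clec7a and Clec12a in lean rat 2, were below the 95th percentile of background. Their values here thus depend on the floor of the array as well.

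**Figure D4:**
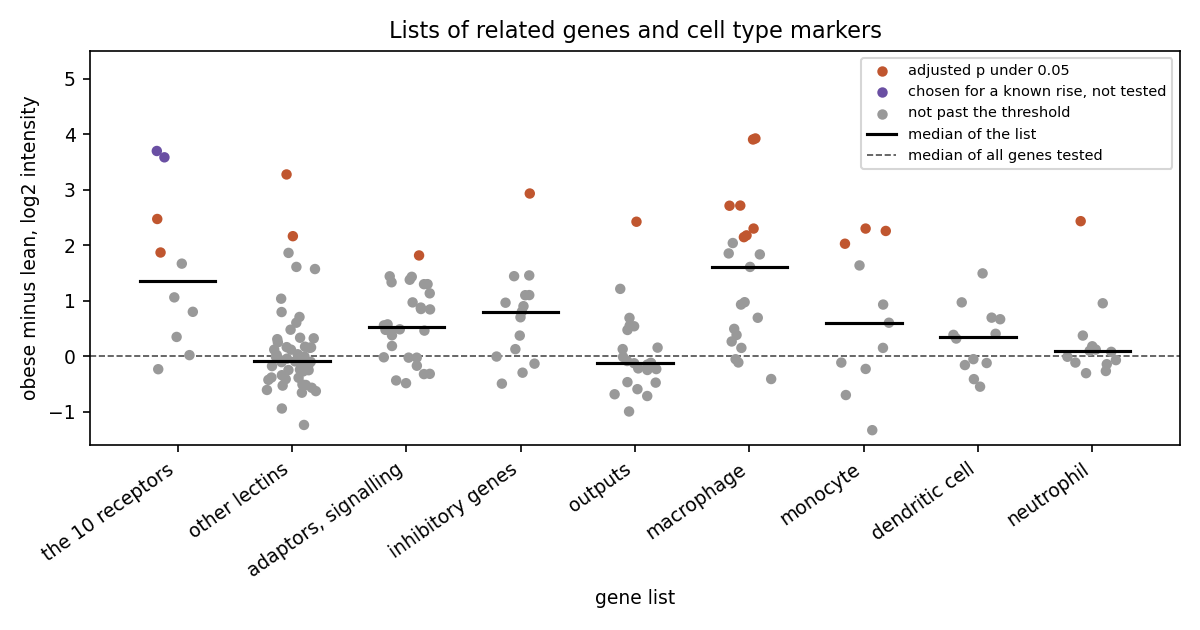
Difference between obese and lean rats in log2 intensity (y axis) for each gene of the 10 receptors, of the lists of related genes and of the cell type markers (x axis), with orange for an adjusted p under 0.05, purple for Clec5a and Clec7a, chosen for known rises and not tested, black lines for list medians and a dashed line for the median of all genes. The medians are 1.36 for the 10 receptors (0.93 without Clec5a and Clec7a), 1.61 for macrophage markers, 0.52 for adaptors and signalling and -0.08 for other lectins.

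The genes whose pattern over the 4 arrays was closest to Clec5a and Clec7a were found by the Euclidean distance between log2 values centred on each gene's mean. For Clec5a they were Clec7a (distance 0.31), the myeloid receptor Slamf9 (0.50), the chemokine Ccl9 (0.62), Mrgprx2 (0.66) and the macrophage glycoprotein gene Gpnmb (0.68). For Clec7a they were Slamf9 (0.23), Clec5a (0.31), Ccl9 (0.36), Mrgprx2 (0.47) and the cytochrome P450 gene Cyp4b1 (0.59). Slamf9 was at 3.84 and 4.04 in the lean rats and at 8.10 and 7.14 in the obese rats. Over 4 arrays such distances mainly rank genes by the size of their difference, and they are a description with no test.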

How the data were processed

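Total RNA from retroperitoneal fat was hybridised to Affymetrix Rat Gene ST arrays, 1 per rat. The authors deposited linear intensity values made with RMA, per the submitters' processing notes, with software and settings not stated in the sources at hand. The deposited arrays were not fully alike in distribution, with a log2 interquartile range of 2.24 in lean rat 2 and 2.63 to 2.77 in the others. The log2 of each intensity was used, with nothing added. Symbols came from the platform annotation, where 15310 of 29214 rows had exactly 1, and the row with the highest mean was kept for each of 14506 genes. All of these rows with a gene ID in RefSeq's table for GRCr8 (15279) kept their symbol.

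Rats were grouped by sample title, and limma 3.58.1 (R 4.3.3) fitted the phenotype to all 4 arrays with lmFit and a trended eBayes and no covariate. P-values were adjusted by Benjamini-Hochberg over all genes, with a threshold of 0.05, and the procedure was tested on simulated data. The receptors and gene lists were chosen with earlier results of these data known. Named genes are the 10 receptors, up to 6 called genes of each list or else those with the smallest p, fixed adaptors, phosphatases and Mrc1, and the 5 nearest patterns. Genes outside this rule (Jun, Selp, Slamf9's values, S100a8, Mpo, Lcn2, Fcgr1a, Cd14, Cd163, Marco, Lyve1, Nr4a1, Ly6c, Plac8 and the cluster neighbours) were chosen after their values were seen. Alternatives covered scaling, variance models, filters, rows, a pseudocount, the rat number as a block and each rat left out. The shift to the receptor background was added after seeing the data. Figures were drawn with matplotlib 3.10.9.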

Additional observations from a re-analysis of the deposited data

How the results depend on the processing

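Clec5a and Clec7a, given as a description, kept their sign under all alternatives, Clec5a from 2.32 with a pseudocount of 16 to 4.04 with arrays shifted to the receptor background. Clec10a, Clec4a1, Clec4a3, Clec4d, Clec4e and Clec12a kept their sign in each. Calls below are given only for the other 8 receptors, of which Clec4a3 and Clec12a were called in the analysis reported. Quantile normalization left 69 of 14506 genes called against 122, and adjustment over all rows of the table left 185 of 29214 rows. In both settings neither Clec4a3 nor Clec12a stayed called. The count of genes was 262 with a robust variance model and 301 at an adjusted p under 0.1, and from 268 to 1081 with a rat left out, where 3 to 5 receptors were called and the spread came from fewer rats. The rat number pairs nothing in the labels, and deviations of same-numbered rats correlated at 0.02 over genes. As a replicate block it gave 327 genes, with Clec4a1 (limma adjusted p = 0.035) called beside Clec4a3 and Clec12a. Clec9a reversed with median centring (-0.054) and with 1 rat omitted lay between -0.22 and 0.26. Cd209a reversed with quantile normalization (0.039) and after the shift to the receptor background (0.11) and with 1 rat omitted lay between -0.71 and 0.24. That shift, chosen after seeing the data, moved the median of all genes to 0.35. The causes were not tested. Clec4e, Clec9a and Cd209a have no value under the filters on dim genes. Signal over background limits Clec5a, Clec4d and Clec4e in both lean rats, Clec7a and Clec12a in lean rat 2, and Clec9a and Cd209a in all.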
